A study of Mus musculus with 16 samples.

Results

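The Prader-Willi region of mouse chromosome 7 holds a run of imprinted genes, and beside it lies a stretch of genes that are not counted among the imprinted genes of the region. The 8 such neighbours described here are Tubgcp5, Cyfip1, Nipa2, Nipa1, Herc2, Gabrg3, Gabra5 and Atp10a, named in their order along the chromosome towards the imprinted genes. They were chosen by symbol, and all 8 were found among the 43472 gene rows of the deposited counts. RNA was read from 16 libraries of mouse brain in 4 groups of 4: Prepl knockout mice and the wild types given as their controls, and PWS-IC deleted mice and the wild types given as theirs. Prepl lies on another chromosome; it codes for a hydrolase named prolyl endopeptidase-like, and people without it have a form of congenital myasthenia. PWS-IC stands for the Prader-Willi imprinting centre, a stretch of DNA at the start of Snurf and Snrpn without which the paternal genes of the region stay silent. Strain, age, brain part and the parent that passed on the deletion are not given in the labels, nor is it said that replicates are separate animals, so each p-value refers to the spread among the libraries and to nothing wider.

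An imprinted gene is read from the copy of 1 parent. In the Prader-Willi region Ndn, Magel2, Mkrn3, Peg12, Snrpn and the long transcript that runs from it are read from the father's copy, and Ube3a is read from the mother's copy in neurons. The neighbours are usually read from both copies, but they matter for the human disease because the larger of the common Prader-Willi deletions also removes TUBGCP5, CYFIP1, NIPA2 and NIPA1, and the human genes for the receptor subunits lie inside both common deletions. Imprinting of Atp10a has been reported in some studies of mouse tissue and not in others. The comparison of each mutant with its own wild types therefore addresses whether RNA of these neighbours moved when the imprinting centre was lost, and, in the other mutant, when Prepl was lost.

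Tubgcp5 encodes a subunit of the gamma-tubulin ring complex, which seeds microtubules. Cyfip1 encodes a subunit of the WAVE complex, which drives actin branching, and it also binds FMRP, the protein lost in fragile X syndrome, as a brake on translation. Nipa2 and Nipa1 encode magnesium transporters of the membrane, and mutations of human NIPA1 cause a hereditary spastic paraplegia. Herc2 encodes a very large ubiquitin ligase that in human cells binds UBE3A and takes part in DNA repair. Gabrg3 and Gabra5 encode the gamma3 and alpha5 subunits of the GABA-A receptor, the chloride channel of fast inhibition, and alpha5 is known for its place in the hippocampus and in tonic inhibition. Atp10a encodes a P4-ATPase, a flippase that moves phospholipids to the inner leaf of the plasma membrane.

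In GENCODE M21, which uses GRCm38, the assembly that mm10 denotes, the 8 genes are protein-coding and span chr7:55794154-58829420. Tubgcp5 lies at chr7:55794154-55831677 on the plus strand, Cyfip1 at chr7:55841745-55932602 on the plus strand and Nipa2 at chr7:55931287-55962476 on the minus strand. Nipa1 follows at chr7:55977567-56019954 on the minus strand and Herc2 at chr7:56050196-56231800 on the plus strand. The receptor genes Gabrg3 (chr7:56716465-57387188) and Gabra5 (chr7:57407672-57510059) lie on the minus strand, and Atp10a (chr7:58656166-58829420) on the plus strand. Their 5' ends lie between 4.211 Mb (Tubgcp5) and 1.349 Mb (Atp10a) before the 5' end of Snurf, and Ube3a, the nearest imprinted gene on that side, starts 0.776 Mb before it.

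The libraries hold reads from the 3' ends of poly(A) RNA, so where a gene's exons end, and what lies there on the other strand, bears on its count. Cyfip1 and Nipa2 run towards each other and share 1316 exonic bases at their 3' ends (chr7:55931287-55932602). The strand setting of the counting is not given in the sources used here, so how reads in that stretch were counted is not known. The counts of Cyfip1 and Nipa2 both carry that limit. Nipa1 shares 473 exonic bases with the antisense gene A230056P14Rik, which had 128 reads over the 16 libraries against 1062 for Nipa1. Gabra5 shares 148 exonic bases with the antisense gene Gm9962, which had 90 reads against 6687 for Gabra5. For the last 500 transcribed bases of Tubgcp5, Nipa1, Herc2, Gabrg3, Gabra5 and Atp10a, no stretch of at least 75 bases matched a transcript of another gene at 95% identity or more.

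The promoters of 7 of the 8 genes were found in RefSeq for GRCm38.p6, as windows of 250 bases before to 50 bases after a start site; Herc2 had 2 windows. The windows of 3 genes are printed because the results below turn on these genes, Herc2 and Gabra5 for the wild-type comparison and Atp10a for the imprinting-centre deletion; capitals mark CG dinucleotides. They are the first Herc2 window (chr7:56049905-56050204, plus strand), the Gabra5 window (chr7:57510010-57510309, minus strand) and the Atp10a window (chr7:58657952-58658251, plus strand), each written 5′ to 3′ on the strand of its gene. The Atp10a window lies inside the span given for the gene above, past its 5′ end at chr7:58656166.
Herc2: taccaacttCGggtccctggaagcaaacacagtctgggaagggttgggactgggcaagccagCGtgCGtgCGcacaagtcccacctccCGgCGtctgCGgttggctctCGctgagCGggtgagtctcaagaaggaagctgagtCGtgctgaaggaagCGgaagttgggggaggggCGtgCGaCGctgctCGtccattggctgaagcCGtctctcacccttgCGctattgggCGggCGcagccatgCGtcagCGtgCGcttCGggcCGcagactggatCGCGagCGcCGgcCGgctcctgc
Gabra5: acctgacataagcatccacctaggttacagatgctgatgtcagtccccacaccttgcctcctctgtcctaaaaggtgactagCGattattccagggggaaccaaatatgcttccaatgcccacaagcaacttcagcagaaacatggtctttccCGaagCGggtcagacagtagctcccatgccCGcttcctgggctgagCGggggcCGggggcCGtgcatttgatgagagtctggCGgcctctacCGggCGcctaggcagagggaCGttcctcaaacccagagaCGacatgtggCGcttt
Atp10a: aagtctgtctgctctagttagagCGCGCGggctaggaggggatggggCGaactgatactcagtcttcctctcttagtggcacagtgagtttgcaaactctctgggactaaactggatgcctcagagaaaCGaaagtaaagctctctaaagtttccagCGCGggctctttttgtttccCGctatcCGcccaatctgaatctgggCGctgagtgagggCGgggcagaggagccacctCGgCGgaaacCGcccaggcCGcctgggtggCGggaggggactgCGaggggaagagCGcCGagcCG
All 8 windows of these genes were richer in CG dinucleotides than the median of 7 over 32851 windows. The Gabrg3 and Gabra5 windows held 13 CG each, Tubgcp5 18, Nipa2 19, Atp10a 20 and Nipa1 30, and the Herc2 windows held 29 and 38. The motif GGGCGG (the GC box, either strand) was in 7 of the 8 windows, all but that of Gabra5, and in 35.7% of all windows. CCAAT, on either strand, was found 2 times in the first Herc2 window and once each in Gabra5 and Atp10a, and in 37.4% of all windows. TATAAA, the TATA box, was in none of them and in 13.6% of all windows.

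Each library held 3477624 to 5852716 reads in genes, and levels are given as CPM, counts scaled to a fixed total of reads in genes, with the SD over 4 libraries. Prepl averaged 1.64 ± 0.453 CPM in the knockouts and 34.8 ± 1.35 CPM in their wild types. Ndn averaged 4.30 ± 1.90 CPM in PWS-IC deleted mice and 556 ± 11.1 CPM in their wild types. By Xist and Y-linked genes the 4 Prepl knockouts were male, and their wild types 1 male and 3 females; each PWS-IC group had 2 males and 2 females. The wild types of the PWS-IC comparison stood apart from the other 3 groups in how many reads aligned outside genes, 19.1% ± 1.14 in PWS-IC deleted mice against 12.3% ± 1.03 in their wild types (difference 6.80 points, p = 0.0286 in a two-sided exact permutation test, which 4 libraries against 4 cannot go below, and 0.0429 after Benjamini-Hochberg adjustment over 3 comparisons). It was 17.7% ± 1.24 in Prepl knockouts and 17.0% ± 1.76 in their wild types (p = 0.600, same exact test). Brain markers were present: 5 neuronal markers summed to 3422 to 4060 CPM and 5 astrocyte markers to 653 to 907 CPM per library. Oligodendrocyte markers were low, at 83.2 to 199.8 CPM for 5 genes. Blood markers summed to 1203 to 1629 CPM in PWS-IC deleted mice, 1796 to 3970 CPM in their wild types and 628 to 1145 CPM in both Prepl groups, and the 5 blood markers were all higher in PWS-IC wild types than in Prepl wild types (adjusted p under the threshold of 0.05 in edgeR's quasi-likelihood test). Of the 5 meninges markers all were lower in PWS-IC deleted mice than in their wild types, with sums of 291 to 314 CPM against 377 to 630.1 CPM. Counted by list, PWS-IC deleted mice also had 4 of 5 blood, 1 of 4 choroid plexus, 1 of 4 oligodendrocyte, 1 of 5 microglia and 1 of 3 striatum markers lower and none of the neuron, astrocyte, hippocampus and cerebellum markers called; Prepl knockouts had 1 of 5 blood and 1 of 4 cerebellum markers lower and none called in the other 8 lists. Over all genes tested, 4.52% were called in PWS-IC deleted mice and 0.262% in Prepl knockouts, so a single call in such a short list says little. The part of these marker differences in the results below was not tested.

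The level of the 8 genes differed widely, and all but Atp10a varied by at most 2.33-fold over the 16 libraries. The highest was Herc2, with 195 to 280.2 CPM over the 16 libraries and a mean of 235 CPM, which placed it at percentile 97.4 of the detected genes. Gabra5 followed at 82.0 CPM on average and Cyfip1 at 49.4 CPM. Gabrg3, Nipa2 and Tubgcp5 lay close together at 22.1, 22.0 and 20.9 CPM, and Nipa1 was below them at 13.1 CPM. Atp10a was scarce, at 1.41 CPM and 0 to 14 reads a library. Because a 3' read library gives about 1 read a transcript, these levels are not divided by length. Herc2 exceeded Gabra5, Gabra5 exceeded Cyfip1 and Cyfip1 exceeded Gabrg3 in all 16 libraries, as Tubgcp5 did Nipa1 and Nipa1 did Atp10a, and the ranges did not overlap in any group. The order of Gabrg3, Nipa2 and Tubgcp5 was not resolved: Gabrg3 was higher than Nipa2 in 9 of 16 libraries, with overlapping ranges in 3 of 4 groups, and Nipa2 was higher than Tubgcp5 in 9 of 16, with overlapping ranges in all 4.

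**Figure D1:**
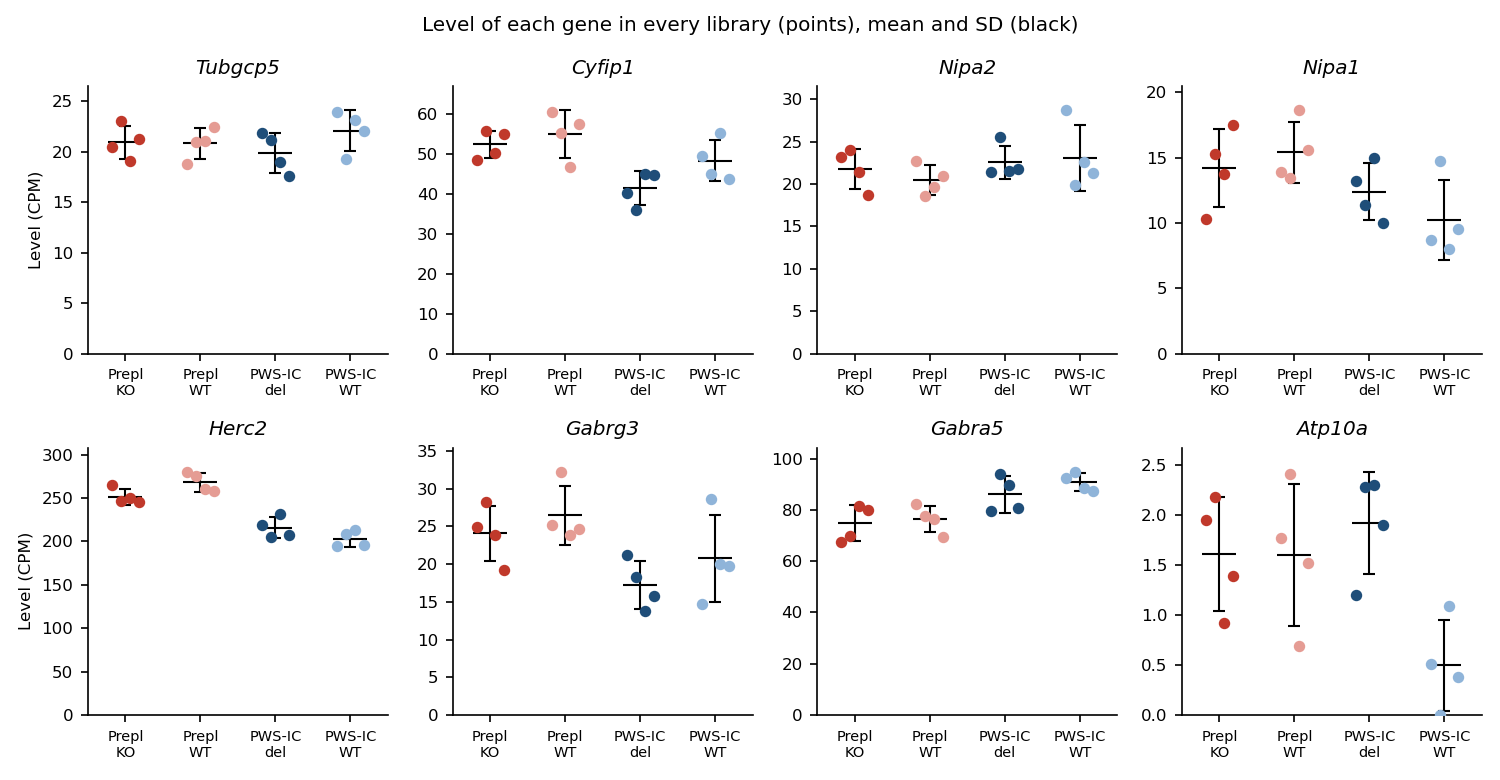
Level of each of the 8 genes in CPM (vertical axis, from 0) in every library, 1 point a library, with the mean and SD of 4 libraries in black; groups from left to right are Prepl knockout, its wild types, PWS-IC deleted and its wild types. The ranges of each mutant and its wild types overlap in every panel except Atp10a, where the 4 PWS-IC deleted libraries (1.20 to 2.30 CPM) lie above the 4 wild types (0 to 1.09 CPM); Herc2 and Gabra5 show a step between the Prepl and PWS-IC sets.

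None of the 7 neighbours that could be tested was called in PWS-IC deleted mice. Of the 7 that passed the filter on low counts (Atp10a did not), 0 had an adjusted p under 0.05 in edgeR's quasi-likelihood test and 0 an unadjusted p under 0.05, and DESeq2 and limma voom also called 0. Over all 13636 genes tested 4.52% were called, and 18.2% had an unadjusted p under 0.05. The median log2 fold change of the 7 was -0.07, beside -0.01 over all genes tested. In the same libraries Ube3a, whose gene starts on the same side of the imprinting centre, rose to 380.1 ± 43.1 CPM in PWS-IC deleted mice, against 245 ± 11.01 CPM in their wild types (log2 fold change 0.64 ± 0.0846 SE, adjusted p = 0.000159). With the percentage outside genes as a covariate, the log2 fold change of Ube3a was 0.50 and the call was lost (adjusted p = 0.999), as was its call in the difference between the mutants' effects (0.52, adjusted p = 0.308). That covariate separates PWS-IC deleted mice from their wild types completely. With it 4 of all genes were called in this comparison, against 616 without it.

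Tubgcp5, the gamma-tubulin complex subunit, read 21.9, 21.2, 19.0 and 17.6 CPM in the 4 PWS-IC deleted libraries and 23.9, 19.3, 23.1 and 22.1 CPM in the 4 wild types. The 2 groups overlapped, with the lowest library among the deleted mice, and the log2 fold change was -0.15 ± 0.145 SE (95% interval -0.45 to 0.16, adjusted p = 0.653). Cyfip1 read 40.2, 36.0, 45.1 and 44.7 CPM in deleted mice and 49.5, 45.1, 55.3 and 43.8 CPM in wild types. It came nearest to the threshold among the 7 that were tested (log2 fold change -0.22 ± 0.114 SE, 95% interval -0.45 to 0.02, unadjusted p = 0.0719, adjusted p = 0.329), and 2 of the 4 wild types lay inside the range of the deleted mice. By sex, Cyfip1 averaged 38.1 CPM in the 2 deleted males and 47.3 CPM in the 2 wild-type males, and 44.9 CPM in the 2 deleted females and 49.6 CPM in the 2 wild-type females.

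Of the magnesium transporters, Nipa2 read 21.4, 25.5, 21.6 and 21.7 CPM in deleted mice and 28.7, 19.9, 22.6 and 21.3 CPM in wild types. All 4 deleted values lay inside the range of the wild types (log2 fold change -0.03 ± 0.149 SE, 95% interval -0.34 to 0.28, adjusted p = 0.947). Nipa1 read 13.2, 11.4, 14.95 and 10.01 CPM in deleted mice and 8.71, 14.8, 8.01 and 9.52 CPM in wild types. Its 4 deleted libraries all exceeded 3 of the 4 wild types, but wild type replicate 2 lay near the top of the deleted range, and the difference was not called (log2 fold change 0.27 ± 0.222 SE, 95% interval -0.20 to 0.73, adjusted p = 0.578). Without that wild type the log2 fold change of Nipa1 was 0.50 and its adjusted p 0.199, the lowest among the alternatives tried for the 7 genes.

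Herc2, the ubiquitin ligase, read 219, 205, 232 and 207 CPM in deleted mice and 195, 208, 213 and 196 CPM in wild types. With at least 806 reads in every library it had the narrowest interval of the 7 (log2 fold change 0.09 ± 0.0801 SE, 95% interval -0.07 to 0.26, adjusted p = 0.587), and its groups overlapped. Gabrg3 read 21.2, 18.2, 13.8 and 15.7 CPM in deleted mice and 14.7, 28.6, 20.02 and 19.8 CPM in wild types. The spread among its wild types was wide and held all but 1 of the deleted values (log2 fold change -0.26 ± 0.196 SE, 95% interval -0.67 to 0.15, adjusted p = 0.534). Gabra5 read 79.6, 94.2, 89.7 and 80.6 CPM in deleted mice and 92.3, 94.8, 88.6 and 87.4 CPM in wild types. Both groups overlapped and the interval was narrow (log2 fold change -0.07 ± 0.0915 SE, 95% interval -0.26 to 0.12, adjusted p = 0.743).

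These intervals set what size of change the data allow. As folds, the 95% intervals of the 7 genes reached from 0.629 (lower bound of Gabrg3) to 1.66 (upper bound of Nipa1). For Herc2 they ran from 0.950 to 1.20 and for Gabra5 from 0.833 to 1.08. The upper bounds of all but Nipa1 lay below the lower bound of Ube3a, 1.38-fold. That comparison covers rises only and leaves out Atp10a. The lowest lower bounds were 0.629 (Gabrg3), 0.730 (Cyfip1) and 0.733 (Tubgcp5). Changes inside these intervals are not excluded at this depth and number of libraries.

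**Figure D2:**
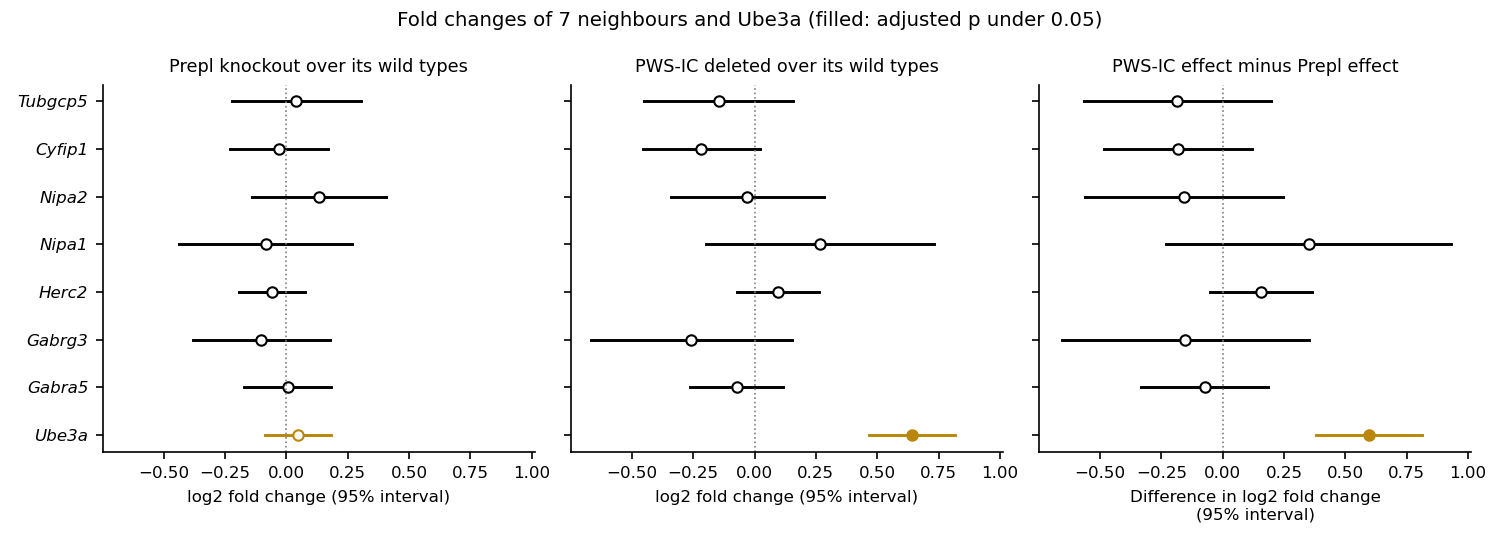
Log2 fold change (horizontal axis) with its 95% interval for the 7 neighbours that passed the filter and for Ube3a (gold), in Prepl knockouts over their wild types, in PWS-IC deleted mice over theirs, and as the difference of these effects; filled points have an adjusted p under 0.05. All 7 intervals cross 0 in every panel, and Ube3a is called in PWS-IC deleted mice (0.64) and in the difference (0.60).

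Atp10a, the flippase gene nearest to the imprinted genes, had too few reads for the filter and is therefore given by its counts. It had 5, 10, 8 and 11 reads in the 4 PWS-IC deleted libraries and 3, 0, 6 and 2 reads in the 4 wild types, or 1.20, 2.28, 2.30 and 1.90 CPM against 0.513, 0, 1.09 and 0.381 CPM. Every deleted library lay above every wild type, the nearest pair being 1.20 and 1.09 CPM. Pooled, 34 reads in deleted mice against 11 in wild types gave a ratio of 3.80 (95% interval 1.88 to 8.31, exact Clopper-Pearson, which covers counting error only). An exact two-sided permutation test of the 70 assignments gave p = 0.0286, the smallest possible, and 0.0857 after Benjamini-Hochberg adjustment over the 3 comparisons made for this gene. Among the 3152 genes that the filter left out but that had at least 20 reads, 5.08% likewise had every deleted library above every wild type. For the wild-type library with 0 reads, a count of 0 allows up to 3 reads, or 0.568 CPM.

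Whether Atp10a was called in PWS-IC deleted mice depended on the fit. Without the filter edgeR's log2 fold change was 1.87 ± 0.630 SE and the adjusted p 0.0665, and with a filter of 1 CPM in 4 libraries it was 1.89 and 0.0713; that filter was met through the deleted libraries, all above 1 CPM, where 1 of the 4 wild types was. In 1 fit of all 16 libraries it was 1.89 ± 0.564 SE with an adjusted p of 0.0373, and with sex as a further term 1.90 with 0.0296. The gene passed the filter of that fit through Prepl and PWS-IC deleted libraries. No PWS-IC wild type, at 0 to 1.09 CPM, reached the level asked for, so these calls are a description. Leaving out each PWS-IC library in turn from that fit of 16, an alternative chosen after seeing the data, gave log2 fold changes of 1.51 to 2.56 and adjusted p-values of 0.0213 to 0.0964, and the call was lost in 6 of 8 cases; it held without wild type replicate 3 (2.56, adjusted p = 0.0213) and without deleted replicate 1 (2.04, adjusted p = 0.0417).

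Atp10a had 10, 11, 5 and 7 reads in Prepl knockouts and 8, 14, 4 and 8 reads in their wild types, or 1.61 ± 0.569 CPM and 1.60 ± 0.712 CPM (SD, n = 4 each). The pooled ratio was 1.00 (95% interval 0.603 to 1.67) and the exact permutation p 1.00. The PWS-IC deleted libraries (1.20 to 2.30 CPM) lay within the range of the 8 Prepl libraries (0.690 to 2.41 CPM), and 3 of the 4 PWS-IC wild types (0 to 1.09 CPM) lay below it. The Prepl libraries are no baseline for the PWS-IC set, since the sets differed in many genes, and which PWS-IC group departs from a usual level was not tested. The PWS-IC wild types enter both the comparison with deleted mice and that with Prepl wild types, so those results are not independent. Atp10a was also the only one of the 8 genes with an unadjusted p under 0.05 for the difference between the mutants' effects (1.85 ± 0.738 SE on the log2 scale). That unadjusted p, from edgeR's fit across all genes, was 0.0179, and the adjusted p was 0.299. In that joint fit too, no PWS-IC wild type reached the level by which Atp10a passed the filter.

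None of them was called in Prepl knockouts either. Of the 7 tested, 0 had an adjusted p and 0 an unadjusted p under 0.05 in edgeR's quasi-likelihood test, and DESeq2 and limma voom called 0. Over the 13722 genes tested 0.262% were called, and 9.43% had an unadjusted p under 0.05. The median log2 fold change of the 7 was -0.03, beside 0.00 over all genes tested.

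Herc2 read 264, 246, 249.9 and 245 CPM in Prepl knockouts and 280.2, 275, 260.2 and 258 CPM in their wild types. The ranges met between 258 and 264 CPM, and the log2 fold change was -0.06 ± 0.0648 SE (95% interval -0.19 to 0.08, adjusted p = 0.835). Gabra5 read 67.6, 69.8, 81.6 and 79.8 CPM in knockouts and 82.2, 77.7, 76.4 and 69.5 CPM in wild types. The groups overlapped, with 1 knockout below every wild type (log2 fold change 0.0045 ± 0.0861 SE, 95% interval -0.17 to 0.18, adjusted p = 0.993). Gabrg3 read 24.9, 28.2, 23.8 and 19.3 CPM in knockouts and 25.2, 32.2, 23.8 and 24.6 CPM in wild types. Wild type replicate 2 held its highest value of the 16 libraries, and the groups overlapped (log2 fold change -0.10 ± 0.135 SE, 95% interval -0.38 to 0.18, adjusted p = 0.872).

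Among the 4 genes farther out, Cyfip1 read 48.7, 55.8, 50.4 and 55.0 CPM in Prepl knockouts and 60.6, 55.3, 46.7 and 57.7 CPM in their wild types. All 4 knockouts lay inside the range of the wild types (log2 fold change -0.03 ± 0.0971 SE, adjusted p = 0.955). Tubgcp5 read 20.5, 23.0, 19.1 and 21.2 CPM in knockouts and 18.8, 21.0, 21.0 and 22.5 CPM in wild types, again with overlap (0.04 ± 0.127 SE, adjusted p = 0.955). Nipa2 read 23.2, 24.0, 21.5 and 18.7 CPM in knockouts and 22.8, 18.6, 19.7 and 21.0 CPM in wild types. Its estimate was the largest of the 7 and was smaller than its standard error (0.13 ± 0.132 SE, 95% interval -0.14 to 0.40, adjusted p = 0.813). Nipa1 read 10.3, 15.3, 13.8 and 17.5 CPM in knockouts and 13.9, 13.4, 18.6 and 15.6 CPM in wild types, with the lowest value in a knockout and the highest in a wild type (-0.08 ± 0.171 SE, adjusted p = 0.922). As folds, the 95% intervals of the 7 genes reached from 0.738 to 1.32, narrower than in the PWS-IC comparison. Since the knockouts were all male and 3 of their 4 wild types female, sex and genotype can be told apart here only through the 1 male wild type; with sex as a term in a fit of all 16 libraries, no neighbour was called.

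The difference between the mutants' effects was tested directly in 1 fit of 16 libraries, in which each effect has its own wild types. Of the 8 genes, 0 passed adjustment, beside 0.778% of 14392 genes, and 1 (Atp10a, above) had an unadjusted p under 0.05 in edgeR's quasi-likelihood test, beside 11.7% of all genes; DESeq2 and limma voom called 0. For the other 7, PWS-IC effect minus Prepl effect ranged from -0.18 (Tubgcp5, 95% interval -0.56 to 0.19) to 0.35 (Nipa1, 95% interval -0.23 to 0.93). For Herc2 it was 0.16 (95% interval -0.05 to 0.36) and for Gabra5 -0.07 (95% interval -0.33 to 0.18). Adjusted p-values of these 7 lay between 0.585 and 0.880.

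Along the chromosome, the called genes of the region in PWS-IC deleted mice were the imprinted ones. All 8 genes of the imprinted list passed the test: 7 were lower and 1, Ube3a, was higher. Among the lower ones Snrpn, which encodes a splicing protein, had a log2 fold change of -3.54 ± 0.112 SE and Ndn, which encodes the growth-restraining protein necdin, -6.94 ± 0.162 SE. In Prepl knockouts 0 of these 8 passed and 1, D7Ertd715e, had an unadjusted p under 0.05 (0.17 ± 0.0738 SE, adjusted p = 0.464). Of 7 genes of the flank beyond Tubgcp5, 0 were called in either mutant and 0 had an unadjusted p under 0.05. In PWS-IC deleted mice the smallest p there was that of Slc17a6, a vesicular glutamate transporter (-0.20 ± 0.0973 SE, adjusted p = 0.276). Of 9 tested genes of the flank beyond the imprinted genes, 0 were called in either mutant by edgeR, with 2 at an unadjusted p under 0.05 in PWS-IC deleted mice (18.2% of all genes) and 1 in Prepl knockouts (9.43% of all genes). The nearest was Fan1, a DNA repair nuclease, with 3.10 ± 0.344 CPM in PWS-IC deleted mice and 1.16 ± 0.836 CPM in their wild types (1.38 ± 0.432 SE, adjusted p = 0.0756), which limma voom called and DESeq2 did not. It too passed the filter on low counts through the 4 deleted libraries (2.88 to 3.61 CPM, against 0.571 to 2.39 CPM in wild types). In Prepl knockouts it was Mtmr10, of the myotubularin family (0.43 ± 0.205 SE, adjusted p = 0.517).

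**Figure D3:**
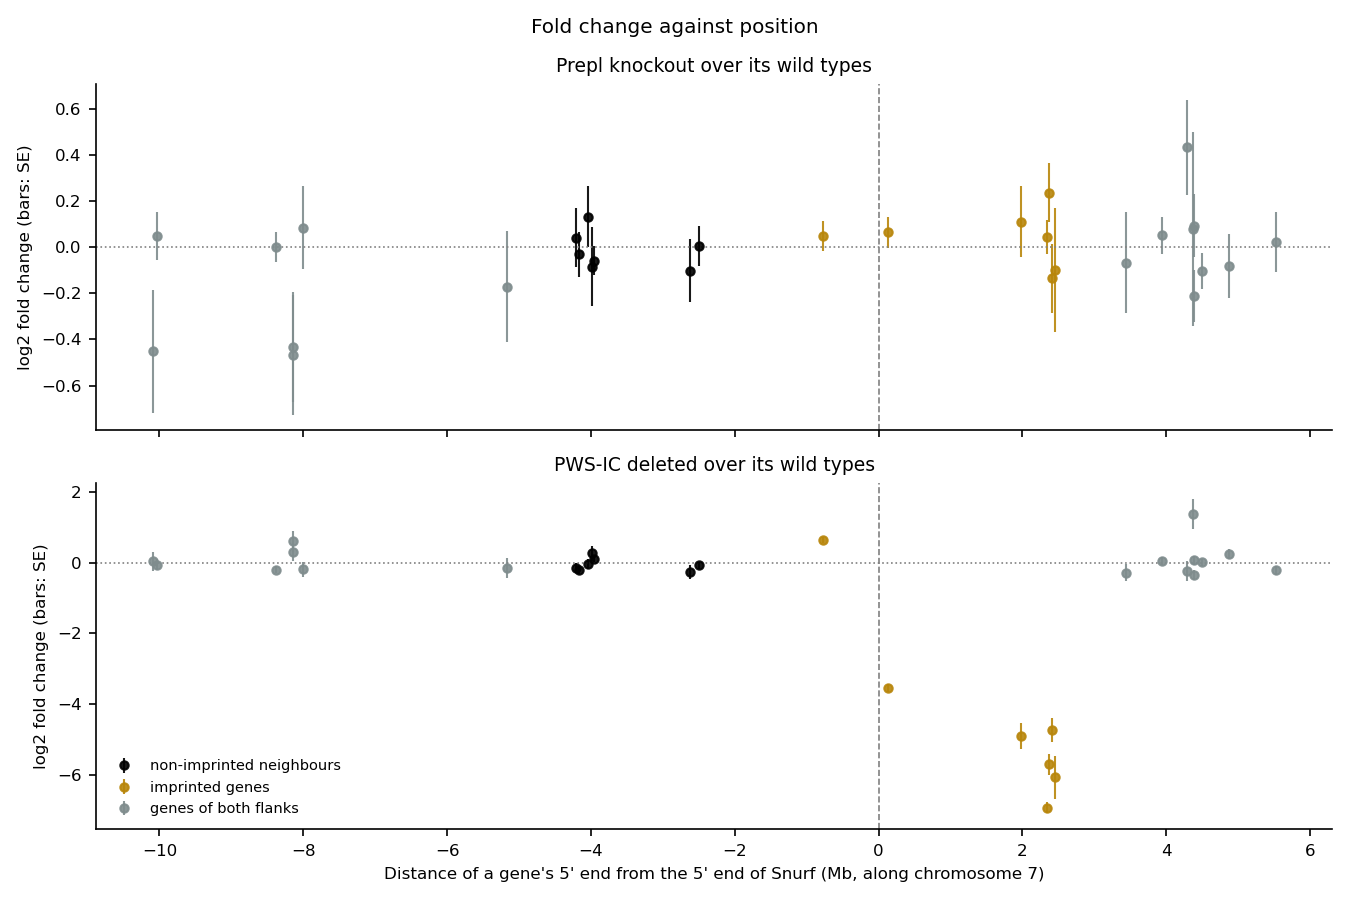
Log2 fold change with its SE (vertical axis) against the distance of each gene's 5' end from that of Snurf in Mb (horizontal axis, dashed line at 0), for Prepl knockouts over their wild types (upper) and PWS-IC deleted mice over theirs (lower); black points are the 7 tested neighbours, gold the imprinted genes with a mapped position and grey the genes of both flanks. In the lower panel the imprinted genes reach -6.94 while the black points stay between -0.26 and 0.27; the vertical scales differ between panels.

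The partners of these genes in the cell were counted from lists of their complexes and families. Over all genes tested, 4.52% were called and 18.2% had an unadjusted p under 0.05 in PWS-IC deleted mice, and 0.262% and 9.43% in Prepl knockouts; the counts of these short lists are read beside those shares. Of 9 tested other GABA-A receptor subunits, 0 were called in either mutant by edgeR, DESeq2 or limma voom, with 1 at an unadjusted p under 0.05 in PWS-IC deleted mice and 0 in Prepl knockouts. The list's median log2 fold change was -0.07 in PWS-IC deleted mice and -0.08 in Prepl knockouts, beside all-gene medians of -0.01 and 0.00.

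Of 10 WAVE complex and FMRP partners of Cyfip1, 1 fell in PWS-IC deleted mice and 0 were called in Prepl knockouts, in each of the 3 tools. The one was Wasf2, a WAVE protein itself, with 23.2 ± 1.78 CPM in PWS-IC deleted mice and 36.1 ± 6.01 CPM in their wild types, with no overlap, as for 11.8% of the genes tested (-0.63 ± 0.140 SE, adjusted p = 0.0128). Wasf2 is widely made outside neurons, and the meninges and blood markers given above were lower in the same libraries; their part in this difference was not tested. The list's median was 0.01 in PWS-IC deleted mice and 0.00 in Prepl knockouts. In Prepl knockouts the smallest p was that of Eif4e, the cap-binding protein that CYFIP1 holds in check (0.15 ± 0.0794 SE, adjusted p = 0.581).

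Of 10 genes of the gamma-tubulin ring complex list, 0 were called in either mutant by any of the 3 tools, with 1 at an unadjusted p under 0.05 in each. In PWS-IC deleted mice it was Tubgcp6, a further subunit, with 7.40 ± 0.541 CPM in deleted mice and 10.4 ± 1.78 CPM in wild types (-0.48 ± 0.207 SE, adjusted p = 0.214). In Prepl knockouts it was Tubg1, gamma-tubulin itself (0.21 ± 0.0932 SE, adjusted p = 0.499). Of 13 tested magnesium transport genes in PWS-IC deleted mice and 12 in Prepl knockouts, edgeR called 0, with 1 at an unadjusted p under 0.05 in each. In PWS-IC deleted mice it was Nipal1, a relative of Nipa1, with 3.16 ± 0.982 CPM in deleted mice and 0.933 ± 0.779 CPM in wild types (1.70 ± 0.523 SE, adjusted p = 0.0694); DESeq2 called it and limma voom did not. Nipal1 passed the filter, which asks for 4 libraries, through the 4 deleted libraries (2.07 to 4.09 CPM, against 0 to 1.88 CPM in wild types), and in the Prepl comparison it did not pass, so this value is a description. In Prepl knockouts it was Cnnm2 (0.43 ± 0.203 SE, adjusted p = 0.517).

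Of the flippases and their subunits, 0 of 9 tested were called in PWS-IC deleted mice and 0 of 10 in Prepl knockouts by any of the 3 tools, with 2 and 0 at an unadjusted p under 0.05. The smallest p values were those of Atp11b in PWS-IC deleted mice (-0.40 ± 0.141 SE, adjusted p = 0.120) and Atp8a1 in Prepl knockouts (-0.14 ± 0.0721 SE, adjusted p = 0.552). Of 9 HERC ligases and partners of Herc2, 0 were called in either mutant by any of the 3 tools, with 3 and 0 at an unadjusted p under 0.05. Xpa, a DNA damage sensor whose protein HERC2 marks for breakdown in human cells, had the smallest p in both mutants, with log2 fold changes of 0.43 ± 0.150 SE in PWS-IC deleted mice (adjusted p = 0.110) and 0.19 ± 0.105 SE in Prepl knockouts (adjusted p = 0.594).

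Between the 2 sets of wild types, where no mutation was compared, 4 of the 8 neighbours were called. The call of Atp10a is a description, and that of Nipa1 was lost in 8 of 16 fits that each left out 1 library. PWS-IC wild types against Prepl wild types gave these 4 calls in edgeR's quasi-likelihood test, 1 higher and 3 lower, beside 24.4% of 14392 genes called, 12.3% higher and 12.1% lower. Of the 3 lower, Atp10a passed the filter on low counts without any PWS-IC wild type. Herc2 was lower, with 195 to 213 CPM in PWS-IC wild types and 258 to 280.2 CPM in Prepl wild types and no overlap (-0.35 ± 0.0715 SE, adjusted p = 0.000484). Gabra5 was higher, with 87.4 to 94.8 CPM in PWS-IC wild types and 69.5 to 82.2 CPM in Prepl wild types, also with no overlap (0.30 ± 0.0886 SE, adjusted p = 0.0135). Ranges without overlap, as for these 2 of 8 genes, were found for 24.3% of the genes tested. Both sets share the label of brain from wild type mice, and strain, age, dissection and handling cannot be told apart from the set.

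Nipa1 was lower in PWS-IC wild types (10.3 ± 3.07 CPM) than in Prepl wild types (15.4 ± 2.34 CPM), at an adjusted p near the threshold (-0.54 ± 0.199 SE, adjusted p = 0.0453). The call was lost in 8 of 16 fits that each left out 1 library. Atp10a was lower too, with 11 reads in all against 34 (-1.57 ± 0.566 SE, adjusted p = 0.0405), a call lost in 6 of those 16 fits and also with no filter (adjusted p = 0.0586), with a sex term (0.0536) and with the percentage outside genes as a covariate (0.533). The exact permutation test on its CPM gave p = 0.0571. Atp10a passed the filter of this fit through Prepl and PWS-IC deleted libraries, as the PWS-IC wild types held 0 to 1.09 CPM, so its call is a description. The call of Gabra5 was lost in 1 of the 16 fits, without Prepl wild type replicate 4 (adjusted p = 0.0557), and that of Herc2 in 0. Cyfip1, Tubgcp5, Nipa2 and Gabrg3 did not pass (log2 fold changes -0.13, 0.13, 0.23 and -0.30, adjusted p 0.201 to 0.495). The percentage of reads outside genes was 12.3% ± 1.03 in PWS-IC wild types and 17.0% ± 1.76 in Prepl wild types. With it as a covariate, 0 of the 8 genes and 378 of all genes were called. The log2 fold change was then 0.28 for Gabra5, -0.91 for Nipa1, -1.25 for Atp10a and -0.22 for Herc2 (adjusted p 0.162 to 0.533), so that of Gabra5 was nearly as large as without the covariate, that of Nipa1 larger, and those of Herc2 and Atp10a smaller.

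**Figure D4:**
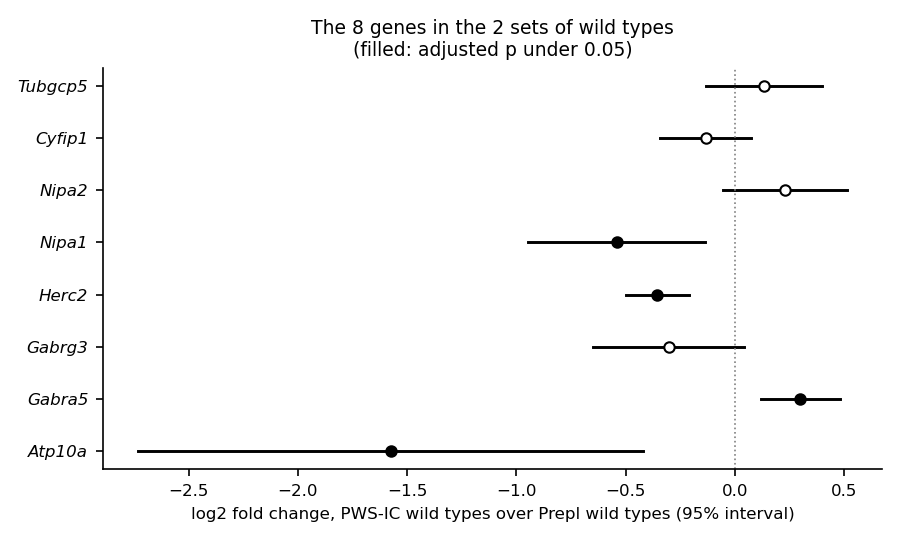
Log2 fold change with its 95% interval (horizontal axis) of the 8 genes in PWS-IC wild types over Prepl wild types; filled points have an adjusted p under 0.05. Gabra5 (0.30) lies above 0, and Herc2 (-0.35), Nipa1 (-0.54) and Atp10a (-1.57) lie below it.

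The mutants stayed near their own wild types on this step. Herc2 averaged 216 ± 12.4 CPM in PWS-IC deleted mice and 203 ± 8.99 CPM in their wild types, and 251 ± 8.92 CPM in Prepl knockouts and 268 ± 11.02 CPM in theirs. All 8 PWS-IC libraries (195 to 232 CPM) lay below all 8 Prepl libraries (245 to 280.2 CPM). The share of all genes separated in this way was not counted. Between the wild types alone, 24.3% of the genes tested had ranges without overlap. That condition is weaker, so whether the separation of all 16 libraries is particular to Herc2 was not tested. Gabra5 averaged 86.0 ± 7.08 CPM in PWS-IC deleted mice and 90.8 ± 3.41 CPM in their wild types, and 74.7 ± 7.02 CPM in Prepl knockouts and 76.5 ± 5.25 CPM in theirs. Here 2 deleted libraries lay within the range of the Prepl libraries. Among genes of the same families, 2 are named here after their values were seen: Gabra2, the alpha2 subunit, had 10.5 ± 1.86 CPM in PWS-IC wild types and 41.6 ± 7.32 CPM in Prepl wild types (-1.93 ± 0.156 SE, adjusted p = 2.19e-10), and Herc1, the other giant HERC ligase, had 211 ± 13.0 CPM in PWS-IC wild types and 278 ± 16.4 CPM in Prepl wild types (-0.35 ± 0.0827 SE, adjusted p = 0.00241). Of the other GABA-A subunits 1 was higher and 2 were lower of 9 tested, and of the HERC list 1 was higher and 2 were lower of 9, beside 24.4% of all genes called in this comparison, so these counts say little of the families.

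The genes whose levels were most like each neighbour's were found by the root mean square difference in log2 CPM over the 16 libraries, each gene centred on its own mean, among 13992 genes. For Herc2 they were Macf1 (0.0647) and Kif1b (0.0722), where the median gene lay at 0.312. For Gabra5 they were Glud1 (0.0811) and Gna11 (0.0845), for Cyfip1 B230219D22Rik (0.0839) and Ifngr2 (0.103), and for Tubgcp5 Polr2f (0.0855) and Oscp1 (0.0939). For Nipa2 they were Naa25 (0.113) and Cand1 (0.118), for Gabrg3 Ino80d (0.160), and for Nipa1 Inha (0.184) and Epha3 (0.189). Atp10a had no close match, with Nkapl at 0.426 and Gm5909 at 0.472, where its few reads add counting noise. These distances share the libraries, their depth and the step between the 2 sets, and are a description. No neighbour was among the 2 nearest of another.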

How the data were processed

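Per the labels' protocols, total RNA was made into Lexogen QuantSeq 3' poly(A) libraries. The authors deposited a count of reads per gene for each library; HISAT2, HTSeq and mm10 come from the submitters' processing notes, and their versions, the annotation and the strand setting were not given in the sources used here. The 5 rows a file that name no gene stayed out of library sizes and tests, and replicates differed by more than sampling noise (chi-square per degree of freedom at least 2.52), so none was treated as a copy. Each mutant was compared with its own wild types with edgeR 4.0.16 under R 4.3.3: filterByExpr (minimum count 10, minimum total 15), TMM factors, quasi-likelihood F-test, Benjamini-Hochberg adjustment over all genes tested, threshold 0.05. The difference between effects and the wild-type comparison came from 1 fit of all 16 libraries. Standard errors are the absolute log2 fold change over the square root of F. Alternatives were DESeq2 1.42.0, limma 3.58.1 voom, other factors and filters, added terms, a joint fit of both sets, and omission of each library. The fits were tested on simulated data with the same spread for all genes, as a check of the code only. The genes changed there had higher levels than Atp10a. CPM was computed from the counts. The 8 genes, the 9 gene lists and the 10 marker lists were chosen with earlier results of these data known. Besides the 8 genes, the text names from each list the called genes, or else the gene with the smallest p; other named genes were chosen after their values were seen. Some genes that this rule names are not reported here; they stayed in all tests. Positions are those of GENCODE M21, and 3' ends were searched with BLAST+ 2.17.0.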

Additional observations from a re-analysis of the deposited data

Results flagged for a closer look

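Among 96 sets of 4 libraries checked, 10 had 1 library far from the other 3, where chance gives about 1 in 20. Among the neighbours, Nipa2 was 25.5 CPM in PWS-IC deleted replicate 2 and 21.4 to 21.7 CPM in the others, and Gabrg3 was 32.2 CPM in Prepl wild type replicate 2 and 23.8 to 25.2 CPM in the others. Among the imprinted genes, Ndn was 461 CPM in Prepl wild type replicate 1 (others 559.7 to 573 CPM), Snrpn 413 CPM in Prepl knockout replicate 4 (others 361 to 364 CPM), Magel2 28.6 CPM in PWS-IC wild type replicate 4 (others 23.3 to 24.0 CPM) and Peg12 0.241 CPM in PWS-IC deleted replicate 1 (others listed at 0). Of the list genes, Mtmr10 was 9.52 CPM in Prepl knockout replicate 2 (others 7.88 to 8.14 CPM), Atp8a1 112 CPM in Prepl knockout replicate 3 (others 100.9 to 102 CPM) and Fan1 3.61 CPM in PWS-IC deleted replicate 1 (others 2.88 to 2.96 CPM). The share of reads outside genes was 19.6% in Prepl wild type replicate 1.

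The effects of PWS-IC deletion and Prepl knockout differed by the test of the difference for genes other than the neighbours (PWS-IC effect minus Prepl effect, log2, edgeR). They were Prepl (4.24), Ndn (-6.98), Magel2 (-5.95), Peg12 (-6.00), A330076H08Rik (-5.01), Mkrn3 (-4.59), D7Ertd715e (-3.75), Snrpn (-3.60) and Ube3a (0.60).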

How the results depend on the processing

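None of the 7 tested neighbours was called in any of 119 alternative values for Prepl knockouts (lowest adjusted p 0.649) or 119 for PWS-IC deleted mice (lowest 0.199). Genes called in Prepl knockouts were 36, against 156 with no filter, 18 in a fit of all 16 libraries, 61 with the percentage outside genes as a covariate and 12 to 103 with 1 library left out (without Prepl wild type replicates 2 and 1). In PWS-IC deleted mice they were 616, against 945 with no filter, 999 in the fit of 16, 1233 with a sex term, 4 with the covariate, which separates these groups completely, and 362 to 653 with 1 library left out (362 without deleted replicate 1). For the difference they were 112, against 222 with no filter, 170 with DESeq2, 235 with a sex term, 14 with the covariate and 67 to 134 with 1 library left out. Between wild types they were 3516, against 378 with the covariate, which separates these 2 sets completely too, and 2772 to 3585 with 1 library left out. Neighbours called were 1 (Atp10a) in PWS-IC deleted mice in the fit of 16 and again 1 with a sex term, and between wild types 0 with the covariate and 1 to 4 with 1 library left out. The rule for pairing, a correlation over 0.1 in every same-number pair, was not met: they were -0.067 to 0.046 for Prepl, and -0.022, 0.168, 0.179 and 0.145 for PWS-IC, where numbers 1 and 2 were male and 3 and 4 female in both groups, and 2 of the 4 deleted libraries correlated best with their own number; with a replicate block 989 genes were called in PWS-IC deleted mice and 2 neighbours between wild types, without Nipa1 (adjusted p = 0.0521) and Atp10a (-1.53, adjusted p = 0.0616), and Atp10a without a filter had an adjusted p of 0.0816.

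Uncalled signs turned as follows, and the cause was not tested. For Prepl knockouts a sex term gave Tubgcp5 -0.061 and Gabra5 -0.026, and the covariate Nipa1 0.0012. For PWS-IC deleted mice the covariate gave Herc2 -0.088, Gabrg3 0.74 and Gabra5 0.057; for the difference Herc2 -0.021 and Gabrg3 0.0027; between wild types Cyfip1 0.038 and Ube3a 0.020. With 1 library left out, Prepl values ran from -0.013 to 0.080 (Tubgcp5), -0.11 to 0.018 (Cyfip1), -0.19 to 0.0042 (Gabrg3), -0.19 to 0.045 (Nipa1) and -0.046 to 0.055 (Gabra5), Nipa2 in PWS-IC deleted mice from -0.10 to 0.097 and Gabrg3 in the difference from -0.29 to 0.054. The difference in the share of reads outside genes was 0.191 to 1.58 points for Prepl and 6.46 to 7.28 points for PWS-IC with 1 library left out. Depth limits Atp10a (112 reads in all).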
